A study of Homo sapiens with 15 samples.

Results

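The genes described here are 10 receptor tyrosine kinases with a record in glioma, namely EGFR, ERBB2, PDGFRA, PDGFRB, MET, AXL, FGFR1, IGF1R, EPHA2 and ROS1. They were chosen by symbol, and each matched exactly 1 of the 25737 entries of the count table. ROS1 was included because it had been seen higher in every ID group, so its levels against GFP are given as a description with no test. The counts came from U87MG, an established human glioblastoma line, collected 24 h after lentivirus was added. The GFP libraries received GFP lentivirus as the control, and the others received lentivirus for ID1, ID2, ID3 or ID4, labelled as overexpression. Each of the 5 groups had 3 libraries, with totals of 11089044 to 15148979 counts. QuantSeq libraries read the 3′ ends of polyadenylated transcripts, so a count does not tell splice forms or fusion transcripts apart.

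The labels name no further treatment of the cells and do not say whether the 3 libraries of a group were separate cultures. P-values therefore measure the spread between these libraries, which may be technical. The ID genes themselves did not all follow the labels. ID4 counted 0 to 2 with GFP lentivirus and 2479 to 3110 under the label ID4. ID3 averaged 221 ± 8.33 CPM (count scaled to the library total, SD, n = 3) in GFP and 313 ± 11.4 in ID3. It was also at 287 ± 27.8 CPM under the label ID2, where the libraries overlapped those of ID3. ID1 averaged 344 ± 6.96 CPM in GFP and 250 ± 3.6 under the label ID1, and ID2 averaged 85.7 ± 2.81 in GFP and 44.9 ± 1.28 under the label ID2. Both means were below GFP under the other labels too. The ID1 gene averaged 316 CPM under ID2, 329 under ID3 and 281 under ID4, and its ID2 and ID3 libraries overlapped GFP. The ID2 gene averaged 34.3 CPM under ID1, 46.7 under ID3 and 35.9 under ID4. The names ID1 and ID2 below therefore mean the libraries labelled so, and so for every group. Of the glial and mesenchymal markers, VIM, CD44, NES and FN1 were read in every library, while GFAP, S100B and SOX2 counted 0 to 4 and OLIG2 2 to 11. For the 10 markers of other cell types the summed level was 11 to 14.6 CPM in GFP, 16.5 to 19.4 in ID1, 24.6 to 37.5 in ID2, 18.4 to 27.6 in ID3 and 13.4 to 17.9 in ID4. Most of it was SNAP25, a synaptic vesicle fusion protein, at 8.4 ± 1.98 CPM in GFP and 27.8 ± 6.05 in ID2. Of the other markers, SYT1 counted 21 to 51, EPCAM 3 to 15, PECAM1 1 to 8, CD14 0 to 9, PTPRC 0 to 8, and RBFOX3, VWF and CDH5 0 to 2, while AIF1 had several entries and is given in the sum only. Whether these markers had a part in any result below was not tested.

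Receptor tyrosine kinases are membrane proteins that bind a ligand outside the cell, pair up and phosphorylate tyrosines on each other's tails. Adaptors such as GRB2 and SHC1 then dock there and pass the signal to RAS and PI3K, and phosphatases, ubiquitin ligases and inhibitors such as ERRFI1 end it. In glioblastoma, EGFR and PDGFRA are the receptors most often altered, and MET and AXL are known for mesenchymal and invasive states. ID proteins lack a DNA-binding region and pair with basic helix-loop-helix factors, which then no longer bind the E-box motif.

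Promoter windows of RefSeq (build GRCh38.p14, 250 bases before to 50 after a start site) were searched for the E-box letters CANNTG, a motif that is its own reverse complement, so 1 search covers both strands. A window was found for 9 of the receptors, 12 windows in all, and FGFR1 had none. The windows of ROS1, PDGFRA and PDGFRB are shown because these 3 genes had the widest differences between groups among the receptors with E-box letters. Capitals mark CANNTG and each sequence runs 5′ to 3′ on the gene's strand. The ROS1 window is chr6:117425893-117426192 on the minus strand. The PDGFRA windows are chr4:54229043-54229342 and chr4:54233710-54234009 on the plus strand, and the PDGFRB window is chr5:150155796-150156095 on the minus strand.
ROS1: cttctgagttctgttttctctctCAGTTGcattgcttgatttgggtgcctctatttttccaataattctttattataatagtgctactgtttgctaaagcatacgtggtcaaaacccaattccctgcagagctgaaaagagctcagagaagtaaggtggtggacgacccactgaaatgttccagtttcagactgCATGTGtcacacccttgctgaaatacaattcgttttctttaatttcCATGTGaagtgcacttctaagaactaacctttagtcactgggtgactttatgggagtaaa
PDGFRA, first window: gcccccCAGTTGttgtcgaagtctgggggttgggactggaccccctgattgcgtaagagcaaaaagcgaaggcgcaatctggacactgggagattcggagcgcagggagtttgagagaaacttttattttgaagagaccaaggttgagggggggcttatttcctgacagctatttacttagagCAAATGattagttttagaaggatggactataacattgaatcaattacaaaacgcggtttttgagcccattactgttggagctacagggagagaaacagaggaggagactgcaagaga
PDGFRA, second window: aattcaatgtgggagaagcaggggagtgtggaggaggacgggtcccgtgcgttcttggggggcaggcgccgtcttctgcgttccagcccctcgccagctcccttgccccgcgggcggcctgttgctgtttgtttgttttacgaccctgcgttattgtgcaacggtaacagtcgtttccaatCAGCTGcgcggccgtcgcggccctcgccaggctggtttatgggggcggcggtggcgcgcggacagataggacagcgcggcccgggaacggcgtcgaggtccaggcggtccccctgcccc
PDGFRB: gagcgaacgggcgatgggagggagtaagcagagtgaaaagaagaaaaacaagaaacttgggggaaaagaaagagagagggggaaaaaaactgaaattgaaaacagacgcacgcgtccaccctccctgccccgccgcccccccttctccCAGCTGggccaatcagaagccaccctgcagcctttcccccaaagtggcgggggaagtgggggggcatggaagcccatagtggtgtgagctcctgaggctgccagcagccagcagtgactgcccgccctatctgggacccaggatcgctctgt
ROS1 held 3 matches, and 15.3% of all 35116 windows held at least as many. The first PDGFRA window, 1 of 2 EGFR windows and 1 of 2 AXL windows held 2 matches, and 36.4% of all windows held at least that many. A single match was found in the second PDGFRA window and in those of PDGFRB, MET and the other AXL window, and 68.7% of windows held at least that many. The windows of IGF1R, ERBB2 and EPHA2 and the other EGFR window held none. A match is a description of letters and was not tested as a binding site.

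Levels were compared after TMM normalization by edgeR's quasi-likelihood test over the 12870 genes with the higher mean levels, which included all 10 receptors. Of the 9 receptors with a test against GFP, 5 passed an adjusted p of 0.05 in ID1, where 22.1% of all tested genes passed. The higher ones numbered 4, against 12.4% of all genes, and 1 was lower, against 9.73%. In ID2, 5 of 9 passed against 35.1% of all genes, with 2 higher against 18.5% and 3 lower against 16.7%. In ID3, 6 passed against 28.6%, with 4 higher against 15.1% and 2 lower against 13.5%. In ID4, 4 passed against 21.6%, with 3 higher against 12.1% and 1 lower against 9.51%. With 9 genes a single gene moves such a share widely, and nothing particular to the receptors was read from it. All 4 comparisons share the GFP libraries, so a low or high GFP library moves all of them together. The median log2 fold change of the 9 receptors was 0.04, -0.05, -0.03 and 0.06 in ID1 to ID4, and that of all tested genes was 0.00 in each.

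**Figure D1:**
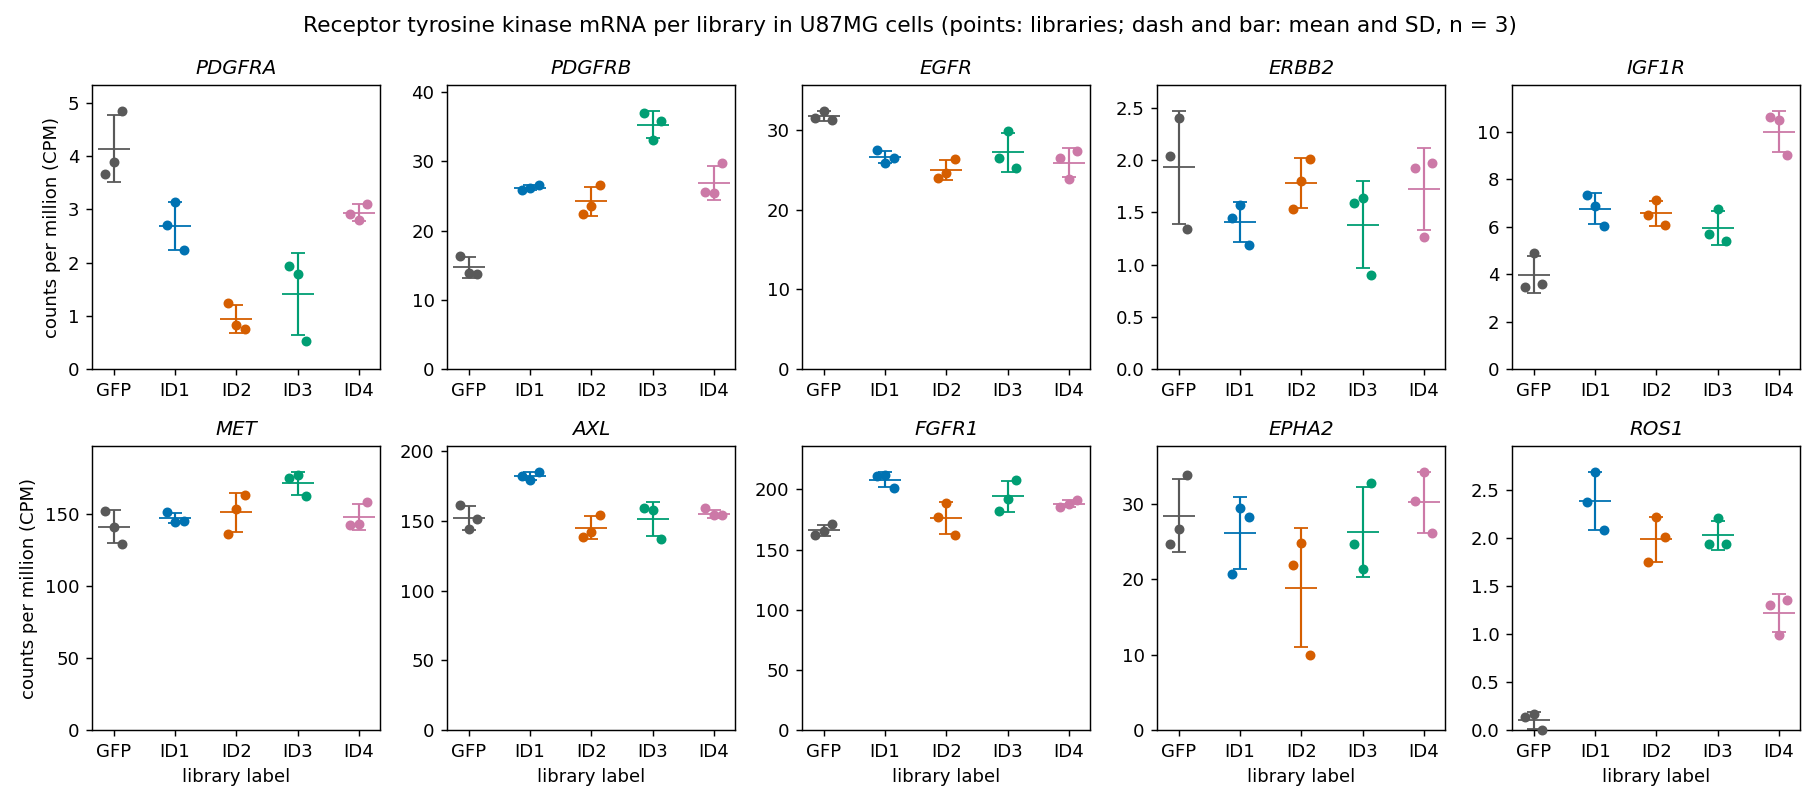
Level of each receptor in every library, in CPM on a linear axis that starts at 0. Points are the 3 libraries of a group, and the dash and bar give mean and SD. PDGFRA is highest and PDGFRB lowest in the GFP libraries, and ROS1 is close to 0 only in the GFP libraries.

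The 2 platelet-derived growth factor receptors moved in opposite directions. PDGFRB rose in all 4 ID groups, by 1.66-fold to 2.36-fold, and PDGFRA fell in ID2 and ID3. PDGFRB (GRCh37 chr5:149493402-149535435, minus strand) binds PDGF-BB and PDGF-DD and marks pericytes and mesenchymal cells. Its level was 16.4, 13.9 and 13.8 CPM in the GFP libraries, 25.9, 26.2 and 26.6 in ID1, 22.4, 23.5 and 26.6 in ID2, 36.9, 33.1 and 35.8 in ID3, and 25.5, 25.4 and 29.7 in ID4. Every ID library lay above every GFP library, and the ID3 libraries lay above all others. Against GFP the log2 difference was 0.82 (standard error 0.10, adjusted p = 1.30e-06) in ID1, 0.73 (0.10, 3.24e-06) in ID2, 1.24 (0.09, 1.29e-09) in ID3 and 0.86 (0.10, 7.44e-07) in ID4.

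Tests between the ID groups placed ID3 apart for PDGFRB. ID1 was lower than ID3 by a log2 difference of -0.42 (standard error 0.09, adjusted p = 0.00372), and ID2 was lower than ID3 by -0.51 (0.09, 3.64e-04). ID3 was higher than ID4 by 0.37 (0.09, 0.00816), and this call was lost without ID4 replicate 1 (0.34, adjusted p = 0.0506). The order of means was ID3, ID4, ID1, ID2 and GFP, and ID4, ID1 and ID2 did not differ beyond their spread.

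PDGFRA (chr4:55095447-55164412, plus strand), the receptor of PDGF-AA and a driver of proneural gliomas, was read at low counts. It counted 52, 47 and 58 in the GFP libraries, 41, 42 and 30 in ID1, 17, 12 and 11 in ID2, 28, 25 and 7 in ID3, and 38, 31 and 41 in ID4. All ID libraries lay below the GFP libraries in CPM, and the ID2 libraries and ID3 replicate 3 were the lowest. The fall in ID2 was -2.11 on the log2 scale (standard error 0.31, adjusted p = 1.40e-05), which left 0.23 of the GFP level. In ID3 it was -1.54 (0.29, 3.17e-04), and -1.17 without ID3 replicate 3, which still passed. ID1 at -0.63 (0.26, adjusted p = 0.0919) and ID4 at -0.49 (0.26, 0.205) did not pass.

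Differences of PDGFRA between ID groups were tested in the same fit. ID1 was higher than ID2 by a log2 difference of 1.48 (standard error 0.33, adjusted p = 0.0026), and ID2 was lower than ID4 by -1.62 (0.33, 0.00122). ID3 was lower than ID4 by -1.06 (0.30, 0.027). That last call was lost without ID3 replicate 3 (-0.68, adjusted p = 0.1) and without ID4 replicate 1, 2 or 3 (-1.06, -1.09 and -1.01, adjusted p = 0.073, 0.0545 and 0.0814). ID1 was above ID3 by 0.92 (0.30, adjusted p = 0.0596), which did not pass, though the libraries of these groups did not overlap. ID2 and ID3, and likewise ID1 and ID4, did not differ beyond their spread.

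The insulin-like growth factor receptor IGF1R (chr15:99191768-99507759, plus strand), which signals through IRS proteins to PI3K, rose in all 4 ID groups. Its counts were 49, 59 and 43 in GFP, 111, 92 and 81 in ID1, 89, 103 and 88 in ID2, 82, 95 and 72 in ID3, and 138, 116 and 119 in ID4. In CPM no ID library reached down to the GFP libraries, and the ID4 libraries, at 10.6, 10.5 and 9, lay above all others. On the log2 scale it rose by 0.75 (standard error 0.17, adjusted p = 0.00186) in ID1, 0.75 (0.17, 0.00121) in ID2, 0.56 (0.17, 0.0148) in ID3 and 1.33 (0.16, 2.16e-06) in ID4. The ID3 call was lost without GFP replicate 1 or 3 (0.46 and 0.51, adjusted p = 0.0811 and 0.0594) and without ID3 replicate 2 (0.45, adjusted p = 0.0805). At its 3′ end IGF1R overlaps SYNM-AS1, a non-coding RNA gene on the other strand with no entry under that symbol. Whether counting used the strand is not given, so reads there cannot be told apart.

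IGF1R was higher in ID4 than in the other ID groups. The log2 difference was -0.59 for ID2 less ID4 (standard error 0.15, adjusted p = 0.00675) and -0.77 for ID3 less ID4 (0.15, 0.00173). For ID1 less ID4 it was -0.58 (0.15, 0.0219), a call lost without ID1 replicate 2 or 3 (-0.59 and -0.50, adjusted p = 0.0639 and 0.12) and without ID4 replicate 1 or 2 (-0.53 and -0.55, adjusted p = 0.109 and 0.085).

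Other genes of chromosome 15 moved in the same direction as IGF1R. The median log2 fold change of the 382 other tested genes with a position on the chromosome was 0.34, 0.25, 0.32 and 0.37 in ID1 to ID4, and that of the 20 nearest was 0.33, 0.10, 0.32 and 0.32. Less the chromosome median, the IGF1R log2 fold change was 0.41, 0.49, 0.24 and 0.96. The chromosome medians of the other receptors lay between -0.14 and 0.09. What the shift of chromosome 15 had to do with IGF1R was not tested.

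**Figure D2:**
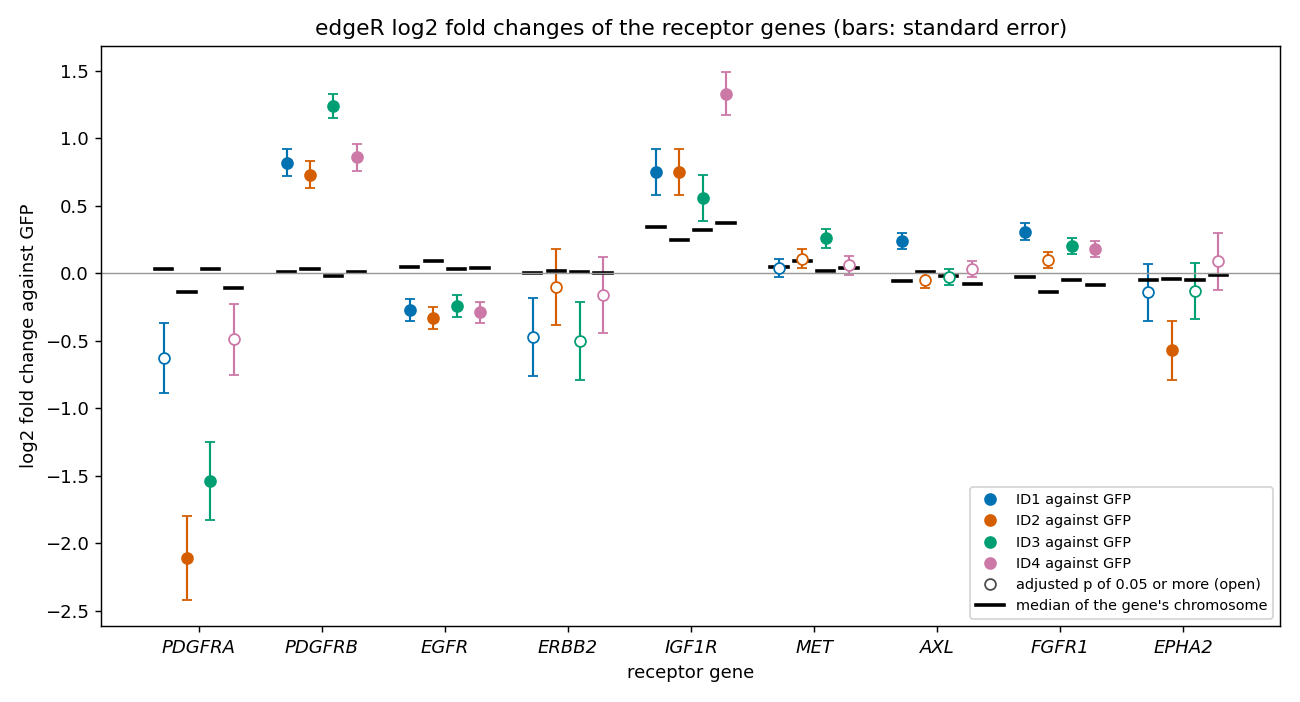
Log2 fold change against GFP of the 9 receptors with a test, from the edgeR fit, with standard errors; filled points passed an adjusted p of 0.05. Black dashes give the median of all other tested genes on the same chromosome, which sits near 0 except for IGF1R on chromosome 15.

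EGFR (chr7:55086710-55279321, plus strand), the receptor of EGF and TGFA, fell by a small amount in all 4 ID groups. It was at 31.5, 32.4 and 31.2 CPM in GFP, 27.5, 25.9 and 26.5 in ID1, 24, 24.6 and 26.4 in ID2, 26.5, 29.9 and 25.2 in ID3, and 26.5, 23.9 and 27.4 in ID4. The 3 GFP libraries lay close together and above every ID library. Its change was -0.27 on the log2 scale (standard error 0.08, adjusted p = 0.0231) in ID1, -0.33 (0.08, 0.0039) in ID2, -0.24 (0.08, 0.0326) in ID3 and -0.29 (0.08, 0.0157) in ID4, and no pair of ID groups differed beyond its spread. Only the ID2 call held under all 13 alternatives. The ID1 call was lost without GFP replicate 2 or ID1 replicate 2 or 3 (adjusted p = 0.0598 to 0.0797). The ID4 call was lost without GFP replicate 2 or ID4 replicate 2 (adjusted p = 0.0556 and 0.0887). The ID3 call was lost without the low-level filter, without any 1 GFP library, and without ID3 replicate 1 or 3 (adjusted p = 0.0502 to 0.127).

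ERBB2 (chr17:37844167-37886679, plus strand), which has no ligand of its own and pairs with the other EGFR family members, counted 12 to 29 in every library. The group means were 1.93 ± 0.541 CPM in GFP, 1.41 ± 0.192 in ID1, 1.78 ± 0.239 in ID2, 1.38 ± 0.415 in ID3 and 1.72 ± 0.393 in ID4. The groups overlapped, and the log2 fold changes of -0.47, -0.10, -0.50 and -0.16 did not pass (standard errors 0.28 to 0.29, adjusted p = 0.209 to 0.822). The p-values do not show that the groups were alike. The 3′ end of ERBB2 overlaps MIEN1 on the other strand, whose own log2 fold changes were -0.02, 0.01, -0.11 and -0.19. The sources do not say whether counting used the strand, so reads there cannot be told apart.

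MET, AXL and FGFR1 were read at 129 CPM or more in every library, and none of their log2 fold changes against GFP exceeded 0.31. MET (chr7:116312250-116438431, plus strand), the receptor of HGF, was at 152, 141 and 129 CPM in GFP and 175, 177 and 162 in ID3, with no overlap. It rose in ID3 by 0.26 on the log2 scale (standard error 0.07, adjusted p = 0.00656), under all 13 alternatives. In ID1, ID2 and ID4 the libraries lay at 136 to 163 CPM and overlapped GFP, with log2 fold changes of 0.04, 0.11 and 0.06. Between ID groups, ID1 was lower than ID3 by -0.22 (0.07, 0.0473), a call lost with a replicate block (adjusted p = 0.0726) and without any 1 of ID1 replicates 1, 2 and 3 or ID3 replicates 1 and 2 (-0.24 to -0.19, adjusted p = 0.074 to 0.168).

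AXL (chr19:41725128-41767671, plus strand), the receptor of GAS6, rose in ID1, and ID1 differed from each other ID group. Its libraries were at 161, 144 and 151 CPM in GFP, 182, 179 and 185 in ID1, 138, 142 and 154 in ID2, 159, 158 and 137 in ID3, and 159, 154 and 154 in ID4. The ID1 libraries lay above all others, and the remaining groups overlapped. The log2 fold change in ID1 was 0.24 (standard error 0.06, adjusted p = 0.00517), against -0.05, -0.03 and 0.03 in ID2, ID3 and ID4. ID1 was higher than ID2 by 0.30 (0.06, 0.0013) and than ID3 by 0.27 (0.06, 0.00614). It was higher than ID4 by 0.21 (0.06, 0.0444), and that call was lost without any 1 of the 6 libraries (0.20 to 0.23, adjusted p = 0.0948 to 0.143), with RLE factors (0.0513), with the other filter (0.0532) and with a replicate block (0.0706).

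FGFR1 (chr8:38257733-38326352, minus strand), a receptor of the fibroblast growth factors, was at 162, 165 and 171 CPM in GFP, 211, 212 and 201 in ID1, 177, 189 and 162 in ID2, 182, 192 and 208 in ID3, and 185, 188 and 191 in ID4. The ID1, ID3 and ID4 libraries lay above GFP, and ID2 overlapped it. It rose in ID1 by 0.31 (standard error 0.06, adjusted p = 6.93e-04), in ID3 by 0.20 (0.06, 0.0164) and in ID4 by 0.18 (0.06, 0.0422) on the log2 scale, with 0.10 (0.06, 0.217) in ID2. The ID3 call was lost without GFP replicate 1 (0.17, adjusted p = 0.0635) or ID3 replicate 3 (0.14, 0.102). The ID4 call was lost with a replicate block (0.18, 0.0543), without GFP replicate 1 or 2 and without any 1 ID4 library (0.15 to 0.19, adjusted p = 0.08 to 0.144). ID1 was higher than ID2 by 0.21 (0.06, 0.019), a call lost in a fit of these 2 groups alone (0.21, 0.0525) and without ID1 replicate 1 or 2 or ID2 replicate 3 (0.16 to 0.20, adjusted p = 0.0651 to 0.0778). The 3′ end of FGFR1 overlaps LETM2 on the other strand, which fell in ID2 by -0.97 (0.20, 6.29e-04) and did not pass elsewhere.

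EPHA2 (chr1:16450832-16482564, minus strand), an ephrin-A receptor, passed in ID2 only, and that call did not hold without 1 of its libraries. It was at 24.7, 26.6 and 33.8 CPM in GFP, 20.7, 29.4 and 28.3 in ID1, 21.9, 24.8 and 10 in ID2, 24.7, 21.3 and 32.8 in ID3, and 30.4, 34.2 and 26.1 in ID4. ID2 replicate 3 stood far below the other 14 libraries. Of the other ID2 libraries, 1 lay within the GFP range and 1 below it. The log2 fold change in ID2 was -0.57 (standard error 0.22, adjusted p = 0.0483), and -0.26 (adjusted p = 0.207) without ID2 replicate 3. It was also lost without GFP replicate 2 or 3 (-0.61 and -0.42, adjusted p = 0.0717 and 0.206), with DESeq2 (0.138), in a fit of the 2 groups alone (0.0879) and with a replicate block (0.0646). ID2 was lower than ID4 by -0.66 (0.22, 0.0389), a call lost without ID2 replicate 3 (-0.36, adjusted p = 0.124), without ID4 replicate 1 or 2 (-0.65 and -0.57, adjusted p = 0.0997 and 0.138), with DESeq2 (0.119), in a fit of these groups alone (0.0872) and with a replicate block (0.0554). The other log2 fold changes against GFP were -0.14, -0.13 and 0.09 in ID1, ID3 and ID4, and their groups overlapped.

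ROS1 (chr6:117608516-117747105, minus strand), a receptor that is activated by gene fusion in some gliomas, was all but unread in the GFP libraries. It counted 2, 2 and 0 in GFP, 36, 36 and 28 in ID1, 24, 32 and 29 in ID2, 28, 31 and 26 in ID3, and 17, 11 and 18 in ID4. No GFP library exceeded the floor of 3 counts, equal to 0.198 to 0.271 CPM, and every ID library did. The ratio of pooled counts, scaled to library totals, to GFP was 22.8 in ID1 (95% exact conditional interval 8.63 to 85.3), 19.1 in ID2 (7.17 to 71.5), 19.4 in ID3 (7.31 to 72.8) and 11.8 in ID4 (4.3 to 45). These intervals cover counting error only and rest on 4 GFP counts in all. ROS1 was chosen for this rise, so the ratios and intervals describe it and do not test it. Without GFP replicate 3 the ratios were 15.7, 13.1, 13.3 and 8.09.

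Between ID groups the ROS1 level was highest in ID1 at 2.39 ± 0.301 CPM and lowest in ID4 at 1.22 ± 0.199. ID1 was higher than ID4 by 0.94 on the log2 scale (standard error 0.26, adjusted p = 0.0421). That call was lost in 10 of 13 alternatives, namely without any 1 of the 6 libraries (0.82 to 1.03, adjusted p = 0.0581 to 0.166), with no filter (0.0667), with a replicate block (0.0627), with DESeq2 (0.111) and with limma (0.0902). ID2 at 1.99 ± 0.234 CPM and ID3 at 2.03 ± 0.152 did not differ from ID1 or from each other beyond their spread. The ID4 libraries lay below all ID2 and ID3 libraries in CPM, but neither of those differences passed.

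The tested genes nearest to ROS1 on either side were KPNA5 and DCBLD1. KPNA5, an importin, had log2 fold changes against GFP of 0.29, 0.11, 0.23 and 0.47, and DCBLD1 had 0.33, 0.19, 0.33 and -0.30, and none passed (adjusted p = 0.0574 to 0.665). GOPC, which lies farther out on the same side as DCBLD1, passed in all 4 comparisons (0.40, 0.36, 0.56 and 0.39, adjusted p = 7.46e-08 to 2.12e-05). The chromosome 6 median was 0.02 to 0.04.

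Across the 6 pairs of ID groups, 3 of the 10 receptors passed between ID1 and ID2 (AXL, FGFR1 and PDGFRA), where 18.6% of all tested genes passed. Between ID1 and ID3 the count was 3 (AXL, MET and PDGFRB) against 9.18%, and between ID1 and ID4 it was 3 (AXL, IGF1R and ROS1) against 4.87%. Between ID2 and ID3, PDGFRB alone passed, against 15% of all genes. Between ID2 and ID4 it was 3 (EPHA2, IGF1R and PDGFRA) against 18.6%, and between ID3 and ID4 it was 3 (IGF1R, PDGFRA and PDGFRB) against 11.3%. EGFR and ERBB2 passed in none of the 6.

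For each receptor that passed a test, and for ROS1, the tested genes with the most similar profile were taken by Pearson's r of log2(CPM + 1) over the 15 libraries. Groups and libraries are shared by all genes in such a correlation, and the highest values of 12870 are selected, so r is a description. PDGFRB was closest to GOPC (0.97), AMIGO2 and MFGE8 (both 0.95). GOPC, a Golgi protein gene that lies near ROS1 and is its known fusion partner in glioblastoma, is the gene whose rise in all 4 groups is given above. ROS1 was closest to TPM1 and TGFB2-OT1 (both 0.98) and ABHD2 (0.97). PDGFRA was closest to DBN1 and MRPS18B (both 0.92) and HMGB3 (0.91), and IGF1R to GALNT10 (0.95), CLU and RALGPS2 (both 0.91). EPHA2, whose profile carries the low library ID2 replicate 3, was closest to BAG3 (0.97), RCC2 (0.96) and LOC728554 (0.95). EGFR was closest to EDF1 (0.93), SLC25A29 (0.92) and YARS (0.91), and MET to CHURC1-FNTB (0.93), COMMD3 and POP5 (both 0.92). AXL was closest to EVC (0.92), CHML (0.89) and WDR73 (0.87), and FGFR1 to EDN1 (0.90), MYEF2 and DPYSL3 (both 0.88).

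Among ligands of these receptors, 12 of 25 listed genes were tested. The count higher was 4, 3, 4 and 2 in ID1 to ID4 and the count lower was 3, 3, 2 and 4, with medians of 0.08, -0.10, -0.14 and -0.04. Of all tested genes, 12.4%, 18.5%, 15.1% and 12.1% were higher and 9.73%, 16.7%, 13.5% and 9.51% lower. Nothing particular to a list was read from such counts, here or for the lists below. TGFA, a ligand of EGFR, fell in all 4 groups, by -1.10, -0.94, -0.62 and -0.49 on the log2 scale (standard error 0.12 in each, adjusted p = 5.07e-07 to 0.00369). Its level was 23.6 ± 3.02 CPM in GFP and 11.2 ± 1.17 in ID1, so the ligand and its receptor EGFR were both lower in the ID groups. EREG, another EGFR ligand, fell in ID1, ID3 and ID4 by -0.51, -0.57 and -0.82, with -0.18 in ID2. EFNA3, an ephrin bound by EPHA2, fell in ID1, ID2 and ID4 by -1.14, -1.01 and -0.81, with -0.55 in ID3.

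PDGFA, a ligand of PDGFRA, rose in all 4 groups by 0.48, 0.20, 0.36 and 0.45 on the log2 scale (standard error 0.06 in each, adjusted p = 2.82e-06 to 0.0147), from 49.7 ± 0.607 CPM in GFP to 56.2 ± 1.26 in ID2 and 70.2 ± 2.59 in ID1. In ID2 and ID3 this ligand was thus higher while its receptor PDGFRA was lower. PDGFB and PDGFD, ligands of PDGFRB, counted 0 to 2 in every library.

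HGF, the ligand of MET, lay under the level needed for the main test and is named because it passed in all 4 comparisons once the filter was removed. It counted 37, 29 and 21 in the GFP libraries, 13, 11 and 12 in ID1, 0, 1 and 0 in ID2, 7, 3 and 4 in ID3, and 5, 1 and 4 in ID4. Every GFP library lay above every ID library, and ID2 was at or under the floor of 3 counts throughout. The pooled ratio to GFP was 0.377 in ID1 (95% exact conditional interval 0.248 to 0.562), 0.0103 in ID2 (0.000258 to 0.059, from 1 count), 0.147 in ID3 (0.0771 to 0.26) and 0.118 in ID4 (0.0545 to 0.227), for counting error only. The edgeR fit without a filter gave adjusted p = 0.00319, 6.38e-16, 5.32e-08 and 2.22e-08 in ID1 to ID4. These values cannot be set beside those of the main fit. For PDGFRB in ID1 the adjusted p was 9.08e-13 without the filter and 1.30e-06 with it. For EGFR in ID1 it was 0.0376 without the filter and 0.0231 with it. BTC, an EGFR ligand, was the other listed ligand that passed only without the filter, in ID2 (adjusted p = 0.00559), where it counted 0 in all 3 libraries against 2, 5 and 4 in GFP.

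**Figure D3:**
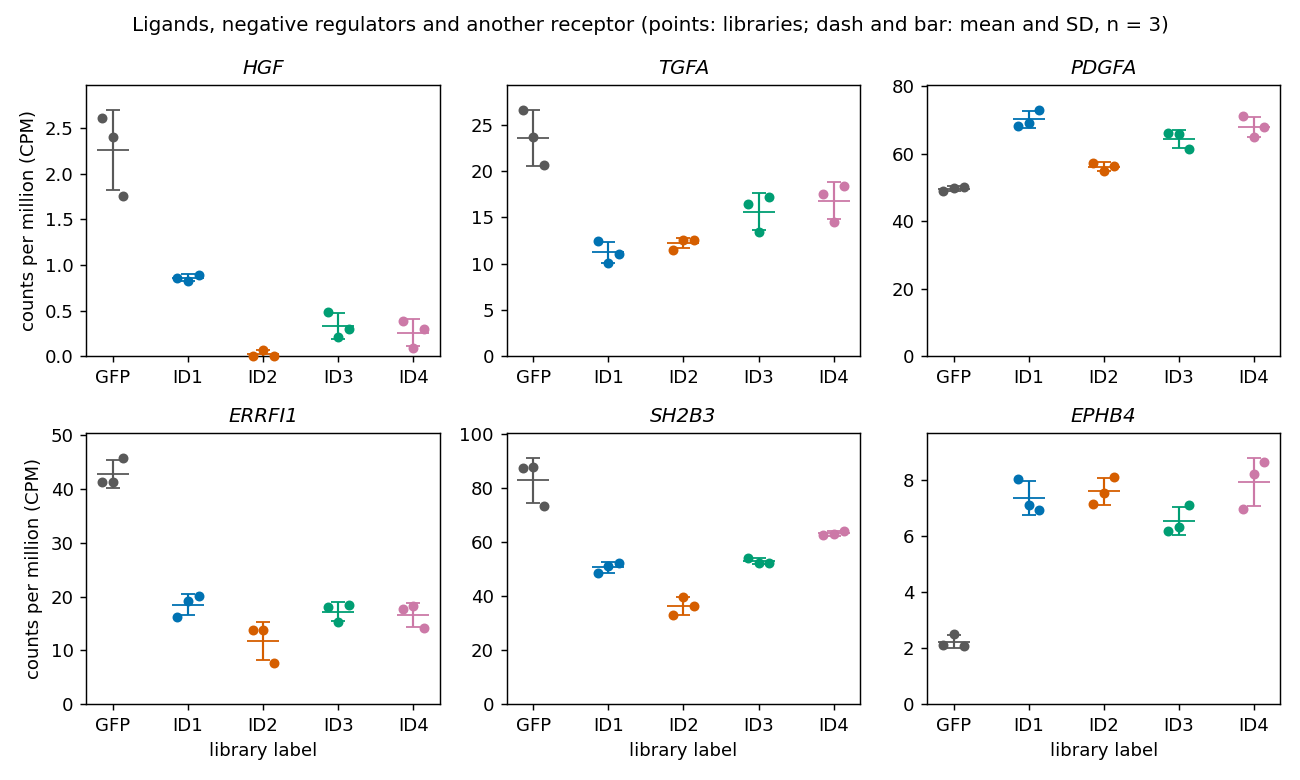
Levels of 3 ligands (HGF, TGFA, PDGFA), 2 negative regulators (ERRFI1, SH2B3) and the receptor EPHB4 in every library, in CPM on linear axes that start at 0, with mean and SD. HGF, TGFA, ERRFI1 and SH2B3 are highest, and PDGFA and EPHB4 lowest, in the 3 GFP libraries.

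Of 12 genes listed as negative regulators, all tested, 0, 2, 3 and 1 were higher and 2, 3, 3 and 3 lower in ID1 to ID4, with medians of 0.06, 0.06, -0.08 and -0.04. The shares of all tested genes are those given for the ligands. ERRFI1, an inhibitor that binds the EGFR kinase, fell in all 4 groups by -1.23, -1.85, -1.33 and -1.37 on the log2 scale (standard errors 0.14 to 0.15, adjusted p = 1.54e-09 to 7.60e-07). It counted 585, 499 and 547 in GFP, and 111 in ID2 replicate 3 against 190 and 198 in the other ID2 libraries. SH2B3, an adaptor that dampens cytokine and growth factor signaling, fell by -0.73, -1.17, -0.67 and -0.39 (standard error 0.07 in each, adjusted p = 3.13e-11 to 3.02e-04). LRIG2, a membrane protein of the LRIG family whose role as an inhibitor was not tested, fell in ID2, ID3 and ID4 by -0.65, -0.71 and -0.58, with -0.24 in ID1. SOCS2, a cytokine signaling suppressor, passed in ID3 alone (0.67, adjusted p = 0.048). Its log2 fold changes in ID1, ID2 and ID4 were 0.64, 0.63 and 0.46 (adjusted p = 0.0677, 0.0538 and 0.229), and no ID group overlapped GFP.

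Of 24 listed adaptors and near effectors, 23 were tested, and 2, 4, 4 and 1 were higher and 1, 3, 3 and 0 lower, with medians of -0.03, -0.02, 0.07 and -0.05. The shares of all tested genes are again those given for the ligands. NRAS and HRAS, GTPases downstream of the receptors, fell in ID2, by -0.61 and -0.31, and in ID3, by -0.25 and -0.31. The edgeR adjusted p was 1.82e-05 and 0.00492 in ID2 and 0.0468 and 0.0063 in ID3. NRAS was at 128 CPM in ID2 replicate 3 against 174 and 187 in the other ID2 libraries. Of 2 sheddases, which release ligands and receptor ectodomains, ADAM10 rose in ID1, ID2 and ID4 by 0.38, 0.54 and 0.38, with 0.23 in ID3, and ADAM17 passed in none.

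The other human receptor tyrosine kinases give the setting for the 10. Of 48 listed, 17 were tested, and for DDR1 that was 1 of 6 entries. The count higher was 6, 6, 7 and 6 and the count lower 2, 2, 2 and 0 in ID1 to ID4, with medians of 0.09, 0.25, 0.19 and 0.01. Of all tested genes, 12.4%, 18.5%, 15.1% and 12.1% were higher and 9.73%, 16.7%, 13.5% and 9.51% lower. EPHB4, which binds ephrin-B2, rose by 1.71, 1.78, 1.53 and 1.83 on the log2 scale (standard errors 0.16 to 0.17, adjusted p = 1.69e-08 to 4.18e-07), from 30, 30 and 25 counts in GFP to 89 or more in every ID library. EPHB3, of the same family, rose by 1.73, 2.09, 1.48 and 1.97 (adjusted p = 1.84e-05 to 0.00194). NTRK3, the neurotrophin-3 receptor, rose by 1.71, 1.98, 1.49 and 1.58 (adjusted p = 7.71e-04 to 0.0155). Its GFP counts were 3, 2 and 6, 2 of them at or under the floor. EPHB3 and NTRK3 were low in GFP, and genes entered the test by their mean over all 15 libraries. Their place in the test may thus rest on the ID libraries, so their p-values describe the rise and do not test it. TYRO3, which shares GAS6 as a ligand with AXL, rose by 0.40, 0.32, 0.36 and 0.45 (adjusted p = 2.94e-04 to 0.00294). EPHA5 rose in ID1, ID2 and ID3 by 1.29, 1.09 and 1.60, with 0.39 in ID4. AATK fell in the same 3 groups by -0.99, -0.98 and -1.34, with -0.90 in ID4.

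**Figure D4:**
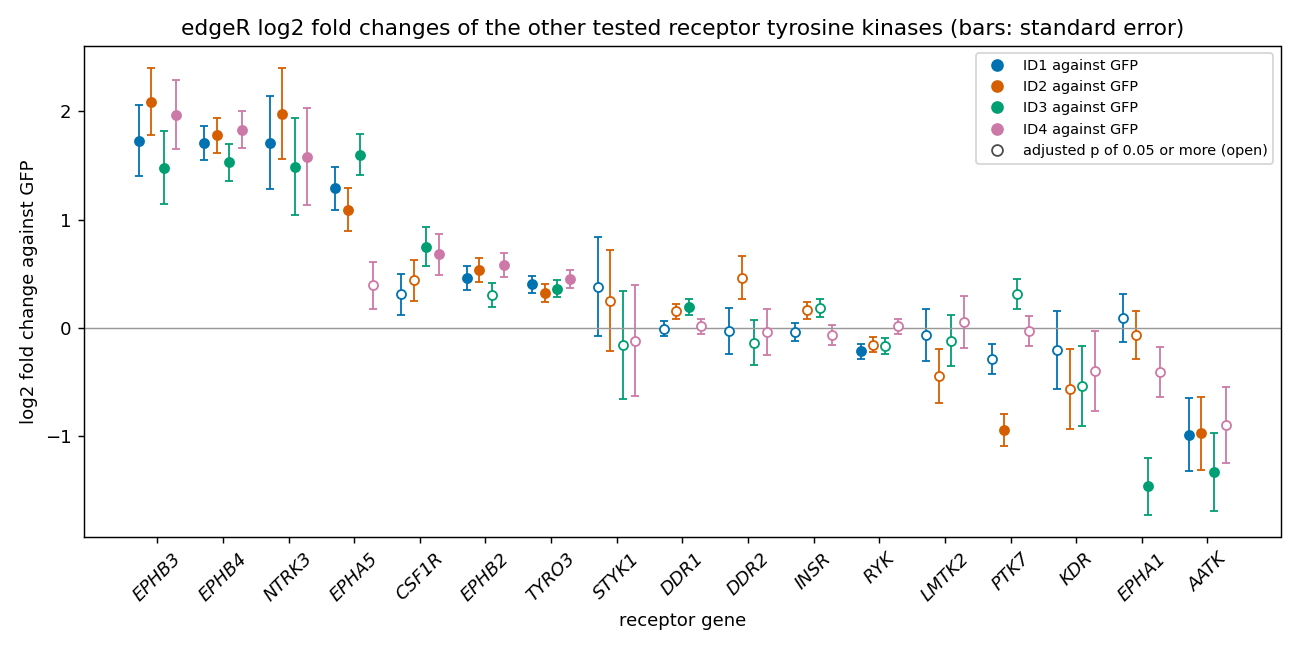
Log2 fold change against GFP of the 17 other receptor tyrosine kinases that were tested, with standard errors from the edgeR fit; filled points passed an adjusted p of 0.05. EPHB3, EPHB4, NTRK3 and TYRO3 have filled points above 0 in all 4 comparisons.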

How the data were processed

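The authors deposited a table of raw read counts per gene symbol, without normalization, and a log2 value per gene and library that they normalized between libraries. The company eBiogen made the QuantSeq libraries on hg19, which is GRCh37. The submitters' processing notes name Bowtie2 and BWA without a role, and the counting tool, annotation and use of strand are not given in the sources used here. CPM is the count scaled to the library total (11089044 to 15148979, median 13403327). The deposited log2 values served only to choose the 12870 genes tested, those in the upper 50% by mean over all 15 libraries (3.22 or more). Most of these are ID libraries, so a gene low in GFP could enter through them. A gene low in the ID groups could stay out, as HGF did. The counts of higher and lower genes depend on this choice.

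The count model was that of edgeR 4.0.16 (R 4.3.3). TMM factors were 0.978 to 1.03, and the model had 1 mean per group over all 15 libraries and 10 residual degrees of freedom (common dispersion 0.00463). P-values were two-sided and adjusted by the Benjamini-Hochberg method over all 12870 genes, with a threshold of 0.05. Standard errors were derived from the test, as the absolute log2 fold change over the square root of its F statistic. The script was checked on simulated counts. Alternatives were RLE factors, DESeq2 1.42.0, limma 3.58.1 with trend on log2 CPM, filterByExpr, no filter, only the 2 groups compared, a replicate block, a log2 fold change over 1, and leaving out each library. Subtraction of the chromosome median was tried for comparisons with GFP.

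The receptors and all other gene lists were chosen with earlier results of these data known. Named genes were the 10 receptors and, in each other list, genes that passed in all 4 comparisons with GFP in 1 direction plus the 2 with the largest mean absolute change among the others that passed at least once. A gene that this rule named is not reported here. HGF, BTC, ADAM17, DDR1, PDGFB, PDGFD, MIEN1 and LETM2 were named after their values were seen. Positions came from GENCODE v44 lifted to GRCh37, where 21995 of 25737 entries had 1 match by symbol, and 11638 tested genes had a position. Counting intervals are 95% Clopper-Pearson intervals on the pooled counts of 2 groups. The floor is 3 counts. Figures were drawn with matplotlib 3.10.9.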

Additional observations from a re-analysis of the deposited data

How the results depend on the processing

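Against GFP, the 13 alternative fits left the PDGFRB calls in all 4 groups, the PDGFRA calls in ID2 and ID3, the MET call in ID3, the AXL and FGFR1 calls in ID1, the EGFR call in ID2 and the IGF1R calls in ID1, ID2 and ID4 past the threshold. The calls that were lost stand beside their values above, and the cause was not tested. With a log2 fold change over 1 as a second condition, the genes that passed numbered 384, 569, 376 and 323 in ID1 to ID4 against GFP, and 155, 64, 72, 151, 214 and 105 in ID1 against ID2, ID1 against ID3, ID1 against ID4, ID2 against ID3, ID2 against ID4 and ID3 against ID4. The receptors that passed then numbered 0, 1, 2 and 1 against GFP and 1, 0, 0, 0, 1 and 1 in the same 6 pairs. A fit of only the 2 groups compared gave 1064 genes in place of 627 for ID1 against ID4 and 1073 in place of 1935 for ID2 against ID3. With no filter 2 receptors passed between ID2 and ID3.

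Leaving out 1 library at a time, the genes that passed numbered 634 to 1165 between ID1 and ID3 (1182 with all), 363 to 423 between ID1 and ID4 (627 with all) and 800 to 1377 between ID3 and ID4 (1450 with all). The receptors that passed numbered 3 to 5 of 6 for ID3, whichever of the 6 libraries was left out, and 2 to 4 of 4 for ID4 against GFP, 0 to 1 of 3 between ID1 and ID4, 1 to 2 between ID2 and ID3, and 1 to 3 of 3 between ID3 and ID4. Log2 fold changes near 0 that did not pass changed sign: MET in ID1 (-0.02 to 0.09), ERBB2 in ID2 (-0.29 to 0.08) and ID4 (-0.35 to 0.02), AXL in ID3 (-0.07 to 0.03) and ID4 (-0.01 to 0.06), and EPHA2 in ID1 (-0.24 to 0.01), ID3 (-0.32 to 0.02) and ID4 (-0.02 to 0.23).

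Libraries with the same number did not deviate together (correlations of deviations from the group means -0.25 to 0.24 over 30 pairs), so the numbers were not taken to pair the samples. With a replicate block, 1 receptor passed between ID1 and ID4 in place of 3, and 4 in place of 5 passed for ID2 and 3 in place of 4 for ID4 against GFP. Low counts limit what PDGFRA, ERBB2, IGF1R, HGF and ROS1 can show.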

Other observations

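Both tested neighbours of PDGFRB on chromosome 5 also differed from GFP; they were named after their values were seen. CAMK2A, a calcium-dependent kinase of neurons, averaged 0.319 CPM in GFP, close to the floor of 3 counts (0.198 to 0.271 CPM). From that low level it rose by 2.64, 2.07, 2.78 and 2.76 on the log2 scale in ID1 to ID4 (standard errors 0.44 to 0.48, edgeR, adjusted p = 5.41e-05 to 0.00176). CAMK2A may have entered the test through the ID libraries alone, so its p-values describe the rise and do not test it. CSF1R, the receptor of macrophage colony-stimulating factor, rose in ID3 and ID4 by 0.75 and 0.68 (adjusted p = 0.00338 and 0.0108), with 0.31 and 0.44 in ID1 and ID2. The median of the 20 tested genes nearest to PDGFRB was 0.05, 0.13, 0.17 and 0.08. Beside PDGFRA, KDR, a VEGF receptor, had log2 fold changes of -0.21, -0.57, -0.54 and -0.40, and CHIC2 had 0.39, -0.16, 0.21 and 0.01, and neither passed (adjusted p = 0.125 to 0.982).

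In the marker lists, FN1, the matrix protein fibronectin, rose in all 4 groups by 0.47, 1.22, 1.21 and 0.62 on the log2 scale, from 6088 ± 241 CPM in GFP to 14239 ± 1066 in ID3 (SD, n = 3). NES, an intermediate filament of neural progenitors, fell in ID1 and ID3 by -0.41 and -0.31. CD44, a hyaluronan receptor, fell in ID2 by -0.21. SNAP25 rose in ID1, ID2 and ID3 by 0.82, 1.73 and 1.08, and SYT1, a synaptic vesicle protein, fell in ID1 by -0.70.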
